A study of Mus musculus with 3 samples.

Results

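The voltage-gated sodium channel alpha subunits are described here in cells positive for the leptin receptor (LepR+) that were sorted out of superior cervical ganglia, which send sympathetic nerves to the head and neck. The genes were taken from a list of symbols, which matched 9 of the 52550 genes of the deposited table: Scn1a, Scn2a, Scn3a, Scn4a, Scn7a, Scn8a, Scn9a, Scn10a and Scn11a. The list was chosen by the measured TPM of these same 3 libraries, the high level of Scn7a among them, so all values of these genes are given as a description with no test. All 3 libraries belong to 1 group: male mice aged 10 weeks with the genotype LepRCRE::Ai32, in which Cre made from the leptin receptor gene (Lepr) turns on a channelrhodopsin fused to yellow fluorescent protein. Live cells that carried the yellow protein were sorted and made into Smart-Seq2 libraries, labelled as biological replicates 1 to 3. There was no second group, and the number of mice or sorted cells behind each library was left unstated in the labels. The reporter stays on in any cell that has made Cre, so a sorted cell need not make Lepr at the time of sorting.

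An alpha subunit is the large membrane protein that forms the pore of a sodium channel. Most members open when the membrane depolarises and carry the rising phase of the action potential in neurons and muscle, and smaller beta subunits sit beside the pore and set its gating and its place in the membrane. Scn7a encodes the atypical member Na-x, which is known from peripheral glia, from glial cells of the brain regions that sense body sodium, and from several non-neuronal tissues. In those brain regions Na-x is held to respond to extracellular sodium, to be bound to the sodium pump and to drive lactate release from glia, with endothelin signalling as a modulator.

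Because the members are paralogs, the first question was whether a read of Scn7a could have been taken for a read of another member. Over the longest annotated coding sequences of GENCODE M21 on GRCm38, Scn7a was 64.5% identical to Scn9a and 62.9% to Scn2a, and the longest run it shared exactly with any listed member was 32 bases, with Scn2a. None of the 4994 windows of 50 bases in the Scn7a coding sequence occurred in the other 8. The other members of the chromosome 2 group were more alike. Scn2a and Scn3a were 83.2% identical, and 525 of the 5903 windows of 50 bases in Scn9a also occurred in another member. The longest stretch that Scn9a shared exactly with a listed member was 184 bases, with Scn3a, and a read that lies inside it fits both genes. The authors' handling of such reads was left unstated in the labels. The few reads of Scn1a, Scn2a and Scn3a are uncertain for that reason. Scn7a, Scn4a, Scn10a and Scn11a held no shared window of 50 bases in their coding sequences. Untranslated exons were not compared: for Scn7a the coding sequence has 5043 bases and all exons together 7338.

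The deposited values are log2 TPM, where TPM is a read share corrected for the length of the gene and scaled to the same total in each library. The read totals recovered from them were 8217510, 8007765 and 7699108 in replicates 1, 2 and 3. Mitochondrially encoded genes took from 19.9% to 21.1% of TPM. Lepr, the gene that drives Cre, was read in every library, at 363, 32.1 and 54.0 TPM, with replicate 1 the high library.

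Scn7a (ENSMUSG00000034810.7, chromosome 2, 66673425 to 66784914 of GRCm38, reverse strand) stood at 1636, 2016 and 1884 TPM in replicates 1, 2 and 3, from 30681, 37866 and 33090 reads. All 3 libraries were high and close together, with a mean of 1846 ± 193 TPM (SD, n = 3), or 10.8 ± 0.154 on the log2(TPM + 1) scale. Among the 21819 protein-coding genes of the table its level ranked 34, 26 and 30 in replicates 1, 2 and 3. It took from 0.164% to 0.202% of all TPM. Of the TPM summed over the 9 alpha subunits, Scn7a made up 97.3%, 99.2% and 97.6%, a mean of 98.0% ± 0.997 (SD, n = 3).

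**Figure D1:**
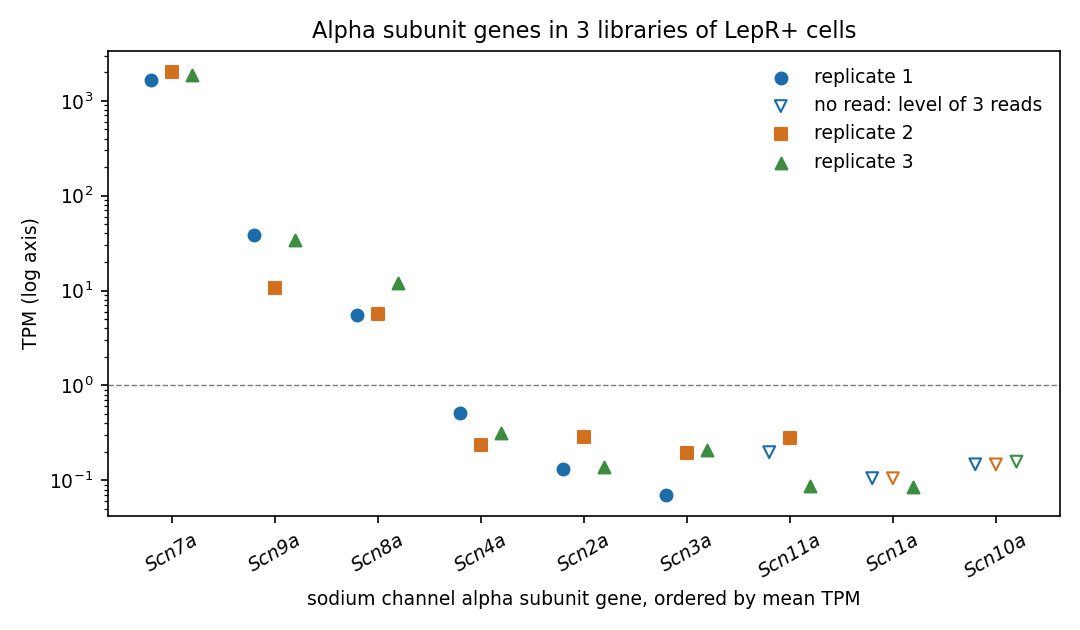
TPM on a log axis for the 9 alpha subunit genes, ordered by mean TPM, with 1 point for each of the 3 libraries; hollow triangles stand for a library with no read, drawn at the level that 3 reads would have, and the dashed line is 1 TPM. Scn7a lies between 1636 and 2016 TPM, Scn9a and Scn8a lie between 5.57 and 38.8 TPM, and the other 6 genes lie below 1 TPM in every library.

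Scn9a, the channel of sympathetic and pain-sensing neurons (ENSMUSG00000075316.11, chromosome 2, 66480080 to 66634962, reverse strand), was the next member, at 38.8, 10.5 and 34.3 TPM from 1265, 344 and 1047 reads. Replicate 2 was the low library and the other two lay close together, with a mean of 27.9 ± 15.2 TPM (SD, n = 3). Scn7a was 42.2, 191 and 55.0 times as high as Scn9a in the same libraries, on the TPM scale. The ratio was highest in replicate 2, the library in which Scn9a was lowest and Scn7a highest. The counting error of the 344 reads of Scn9a in replicate 2 would be 5.39% for independent reads. PCR copies in these libraries cannot be told from separate molecules, so this figure and the levels given for 3 reads cover counting error only.

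Scn8a, the main channel of nodes of Ranvier and of axon initial segments (ENSMUSG00000023033.14, chromosome 15, 100869858 to 101045938, forward strand), had 5.57, 5.71 and 12.1 TPM from 224, 230 and 455 reads. Replicate 3 was the high library, and the mean was 7.78 ± 3.71 TPM (SD, n = 3). Scn9a was above Scn8a in each library, by 6.96, 1.85 and 2.84 times, but the lowest Scn9a library lay under the highest Scn8a library, so the ranges of these neighbours overlapped. Scn7a, Scn9a and Scn8a were the 3 of 9 members with at least 1 TPM in all libraries, a level that 24.5% of the 27395 genes with a read reached. Nothing about the family is read from that count, since the family was picked with its levels in view.

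The other 6 members together had from 15 to 23 reads in a library. Scn4a, the channel of skeletal muscle, had 9, 4 and 5 reads, which was 0.514, 0.236 and 0.312 TPM. Scn2a, a channel of central axons, had 4, 9 and 4 reads, at 0.131, 0.284 and 0.139 TPM. Scn3a, prominent in the embryonic nervous system, had 2, 6 and 6 reads, at 0.0707, 0.196 and 0.210 TPM. These 3 genes had a read in every library and none reached 1 TPM in any. The range of Scn2a overlapped those of Scn4a and Scn3a, while the lowest library of Scn4a lay above the highest of Scn3a. Each such value also contains the 0.25 read that had been added to every gene.

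Scn11a and Scn10a, both channels of pain-sensing neurons, were at the bottom with Scn1a, a channel of fast-spiking neurons and heavily myelinated sensory neurons. Scn11a had 0, 4 and 1 reads and Scn1a had 0, 0 and 2. Scn10a was the 1 member with no read in any library, where 3 reads would be 0.147, 0.147 and 0.157 TPM. Against that level of 3 reads per library, Scn7a was at least 11102, 13702 and 11974 times higher. The order by mean TPM was thus Scn7a, Scn9a, Scn8a, Scn4a, Scn2a, Scn3a, Scn11a, Scn1a and Scn10a. The ranges of neighbours did not overlap between Scn7a and Scn9a or between Scn8a and Scn4a, and all other neighbours in the order overlapped.

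The level of Scn7a varied little among the libraries. Its coefficient of variation (SD over mean TPM) was 10.4%, against a median of 28.0% over the 52 other protein-coding genes within 2-fold of its mean, 13 of which varied less. Scn9a had a coefficient of variation of 54.5%, against a median of 91.9% over 3624 genes of like level. Scn8a had 47.7%, against 123% over 2602 genes. All 3 members therefore varied less than the median gene of their level, Scn8a less than all but 6.26% of those genes. The genes of like level were matched on TPM alone, not on length or reads. The exons of Scn9a and Scn8a add up to 12772 and 15766 bases, and a longer gene has more reads at the same TPM. The part of gene length in these spreads was not tested. The 2-fold window was set after the values were seen, and with 3 libraries these spreads are themselves rough.

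A group of 5 members shares 1 region of chromosome 2, from 65457118 to 66784914 of GRCm38, in the order Scn3a, Scn2a, Scn1a, Scn9a and Scn7a. The start of Scn9a lies 38.5 kb from the 3′ end of Scn7a, both genes are on the reverse strand, and the pair holds the highest levels of the family. Scn1a, whose start lies 344 kb from that of Scn7a, had 2 reads in all. The protein-coding genes between Scn2a and Scn1a were read at mixed levels: Ttc21b, a protein of primary cilia, had 18.4, 22.4 and 39.7 TPM, Csrnp3 had 289, 97 and 1 reads, and Galnt3 had 0, 1 and 1 reads. On the far side of Scn3a, Grb14, an adaptor of the insulin receptor, had 66.6, 42.1 and 51.1 TPM. The region was taken with 500.0 kb on either side, a width set after the values were seen. No exon of another annotated gene overlapped an exon of Scn7a. Scn9a shared 180 exonic bases with Gm13629, an antisense gene with no read in any library, and reads of such a pair cannot be told apart unless strand was used.

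**Figure D2:**
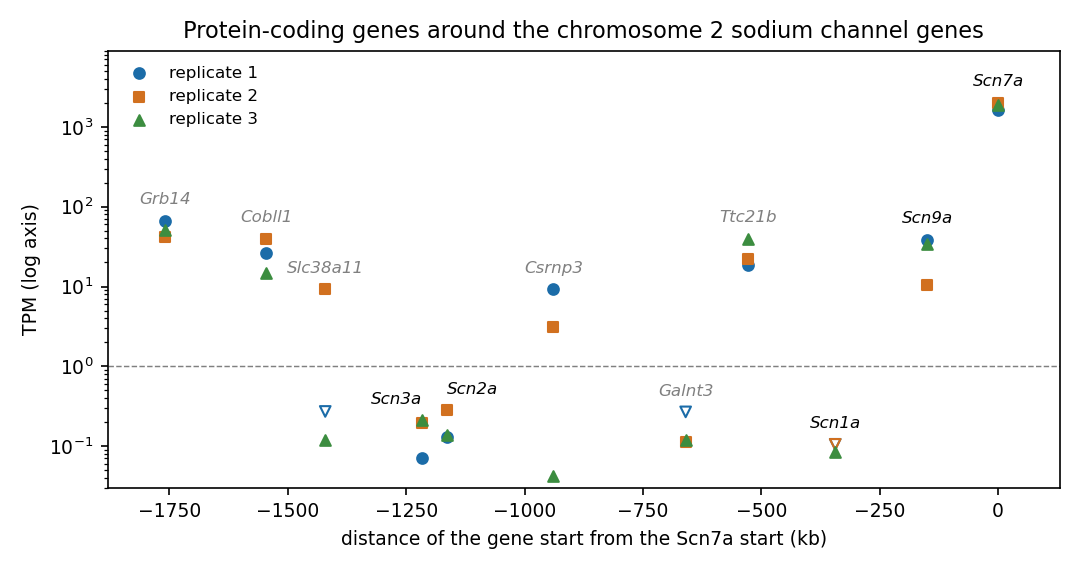
TPM on a log axis against the distance of each gene's start from the start of Scn7a in kb, for the 11 protein-coding genes of the chromosome 2 region and 500.0 kb on either side, with 1 point per library and members in black letters; hollow triangles are libraries with no read, at the level of 3 reads. Scn7a, at distance 0, lies from 1636 to 2016 TPM, Scn9a lies next to it at 10.5 to 38.8 TPM, and Scn1a, Scn2a and Scn3a lie under 1 TPM.

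The protein-coding genes outside the family whose log2(TPM + 1) lay nearest to that of Scn7a over the 3 libraries were Selenop, Scd2, Cd59a and Ubb, with root mean square differences of 0.124, 0.180, 0.192 and 0.228. Such a likeness over 3 libraries of 1 group rests on level alone. Selenop, a secreted carrier of selenium, had 1658, 1741 and 1925 TPM, and Scd2, a fatty acid desaturase, had 1877, 1801 and 2133 TPM. Scn7a was 0.410, 0.605 and 0.372 times Cdh19, a cadherin of peripheral glia.

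Among 169 protein-coding genes whose symbols mark them as potassium, sodium, calcium, chloride, TRP, Piezo, P2X or related channel genes, Scn7a had the highest mean TPM. This group was put together after its values were seen. It takes in only some auxiliary subunits, and it leaves out the sodium channel beta subunits, Nalcn, and the Scnn, Asic and Tpcn genes. Calcium and chloride channel genes were taken only under Cacna and Clcn symbols, so the rank does not cover whole channel classes. Next in mean level were the potassium channel genes Kcnj13 at 245 ± 103 TPM, Kcna1 at 234 ± 90.8 and Kcnj16 at 212 ± 160 (SD, n = 3). The highest library of Kcnj13, at 332 TPM, lay below the lowest of Scn7a.

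**Figure D3:**
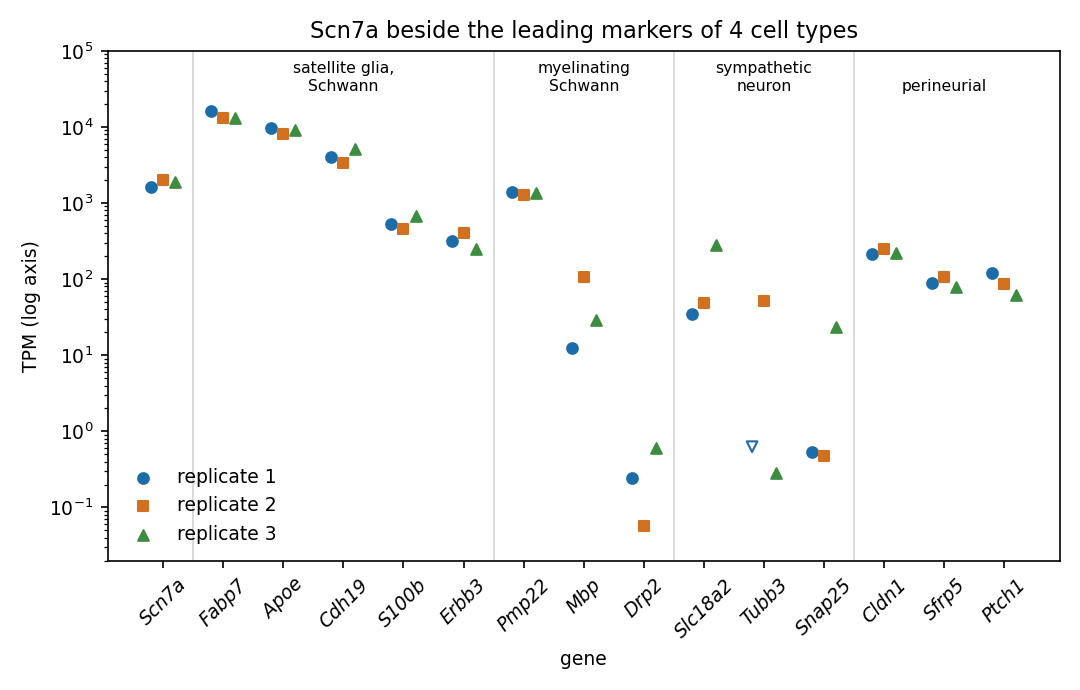
TPM on a log axis for Scn7a and the leading markers of 4 cell types, 5 for satellite glia and Schwann cells and 3 for each other type, with 1 point per library; the hollow triangle is a library with no read, at the level of 3 reads. Scn7a lies below Fabp7, Apoe and Cdh19 and above the drawn neuronal and perineurial markers. Fibroblast markers are not drawn, and Dcn among them had a higher mean than Scn7a.

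Markers of the cell types that the sort could hold were set beside these levels, since sodium channels are foremost neuronal genes. Over all 27395 genes with a read, 24.5% had at least 1 TPM in all libraries, while the marker lists also count any gene with no read. Of 13 satellite glial and Schwann cell markers, 10 had at least 1 TPM in all libraries, and together the 13 had 26123 to 31071 TPM. Of 9 markers of myelinating Schwann cells, Pmp22 (1336 ± 76.1 TPM) and Mbp (49.2 ± 49.7; SD, n = 3) reached 1 TPM in all libraries, while Mag, Prx, Ncmap and Pllp had from 0 to 4 reads in a library. Of 18 sympathetic neuron markers, Slc18a2 did so, and the list summed to 52.6, 115 and 319 TPM. In replicates 1, 2 and 3, 3, 5 and 4 of these neuron markers had at least 1 TPM. Slc18a2, Tubb3 and Snap25 had the highest means of the list. Within the same list, Th had 0, 1 and 4 reads, Npy had none, and Dbh had 4, 9 and 0, while Slc18a2 had at least 1 TPM in all libraries. Th, Npy, Dbh and the 4 myelin genes near 0 were singled out after their values were seen. The part of neuronal RNA in the levels of Scn9a and Scn8a was not tested.

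Of 16 perineurial markers, 7 had at least 1 TPM in all libraries, led by Cldn1, which seals tight junctions of the perineurium, with a mean of 227 ± 15.9 TPM (SD, n = 3), and the list summed to 537, 817 and 647 TPM. The series title calls the sorted cells perineurial. Sums over lists of different genes do not rank cell types, and Fabp7 alone had from 13012 to 16339 TPM of the glial sum. Fibroblast markers, 9 of 12 at this level in all libraries, summed to 5232, 7538 and 7184 TPM, with Dcn at 3791 ± 634. Endothelial, mural and macrophage markers summed to 336 to 475, 135 to 499.6 and 3.62 to 103 TPM. The endothelial list had 10 of 12 members at 1 TPM in all libraries, the mural list 5 of 12 and the macrophage list 0 of 12. The share at this level over the 27395 genes with a read was 24.5%. Skeletal muscle markers, set beside Scn4a, summed to 2.92, 3.93 and 2.21 TPM, and 0 of 10 reached 1 TPM in all libraries. In bulk libraries, fewer cells of a type and less RNA per cell cannot be told apart.

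Genes that work with sodium channels were tested for a mean level above or below 1 TPM. The test was limma's moderated test on log2(TPM + 1), with Benjamini-Hochberg adjustment over all 27395 genes with a read. It called 16.1% of all genes above and 13.5% below. Without replicate 1 or without replicate 2 it called 0 of the 27395 genes either way, although 4645 and 4452 were above at an unadjusted p under 0.05. The calls below 1 TPM also fell to 0 against a level of 0.5 TPM or without mitochondrially encoded genes. The calls that follow hold for all 3 libraries together. Shares and medians over all genes tested take in every annotated gene type, noncoding genes among them. The listed genes are protein-coding, and no share or median over protein-coding genes alone was taken.

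The 3 beta subunit genes analysed were read unevenly. Scn3b had 0, 6 and 1292 reads, which made 98.9 TPM in replicate 3 and 0.447 in replicate 2. Scn4b had 71, 0 and 0 reads, or 5.60 TPM in replicate 1. Each was thus high in 1 library, and not in the same one. Scn2b had 3, 0 and 4 reads. Of these 3 genes limma called 0 above and 0 below 1 TPM. At an unadjusted p under 0.05 it called 0 above and 1 below. After adjustment 1 was called below with a mean-variance trend, with no filter, and against a level of 2 TPM. Their median level was 0.93 on the log2(TPM + 1) scale, against 0.89 over all genes tested, of which 16.1% lay above and 13.5% below. In replicate 3, where Scn3b was high, the neuronal gene Snap25 had 23.5 TPM, against 0.533 and 0.475 in replicates 1 and 2. Snap25 was set beside Scn3b after its values were seen, and Dbh of the same neuron list had no read in replicate 3. The part of neuronal RNA in the level of Scn3b was not tested.

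Of 24 partner genes, which anchor channels, bind their cytoplasmic tails or control their turnover, 23 had a read, 11 lay above 1 TPM and 2 below, and 10 passed neither way (limma). Their median was 3.84 in log2(TPM + 1), against 0.89 over all genes tested, of which 16.1% lay above and 13.5% below. Calm2, a calmodulin gene, led with 1723, 1910 and 3724 TPM, and since the calmodulin genes have processed copies its split from them is uncertain. Dpysl2, a collapsin response mediator that binds sodium channels, had 858, 903 and 558 TPM. Sptbn1, a spectrin of the membrane skeleton, had 386, 451 and 362 TPM. Nedd4, a ubiquitin ligase whose family removes sodium channels from the membrane, had 290, 367 and 299 TPM. These 4 genes were high in all 3 libraries, and limma's adjusted p was 0.00336 for each. They were named for having the highest means of the list, so these p-values add nothing to the levels.

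Ank3, the ankyrin that holds sodium channels at nodes and initial segments, lay above 1 TPM at 43.8, 62.9 and 40.8 TPM (limma, adjusted p = 0.00427). Sptbn4, the spectrin that works with it in axons, lay below with 3, 1 and 2 reads, and Cntn2, an adhesion molecule beside the node, lay below with 0, 2 and 2 reads (limma, adjusted p = 0.0487 for each). Neither of these calls below held against a level of 0.5 TPM (limma, adjusted p = 0.208 and 0.201) or without mitochondrially encoded genes (limma, adjusted p = 0.0781 and 0.0779). Nrcam, which clusters channels at forming nodes from the glial side, was above 1 TPM at 21.9, 21.9 and 42.7. Nfasc had 6.12, 8.49 and 0.332 TPM and passed neither way. Of the intracellular fibroblast growth factor homologues, Fgf13 had 7.62, 62.2 and 0.754 TPM and Fgf14 had 22, 0 and 303 reads, each high in a different library. Ank3, Nrcam, Nfasc, Fgf13 and Fgf14 were singled out after their values were seen.

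A list drawn up around sodium sensing by Na-x held 20 genes, among them sodium pump subunits, pump regulators and lactate genes. Several were taken as members of a family, so a place in the list does not tie a gene to Na-x. Of these 20 genes all had a read, 10 lay above 1 TPM, 3 below and 7 passed neither way (limma). Their median was 4.66 in log2(TPM + 1), against 0.89 over all genes tested, of which 16.1% lay above and 13.5% below. Ednrb, the endothelin B receptor, had 2290, 1048 and 1522 TPM. In replicate 1 it was above Scn7a, and in the other libraries below it. Its ligand gene Edn3 had 1, 3 and 0 reads. Ldhb, the lactate dehydrogenase subunit that favours use of lactate, had 1494, 509.5 and 763 TPM, and Ldha, the subunit that favours its production, had 46.3, 12.8 and 143. Slc16a1, a lactate transporter, had 72.1, 18.6 and 15.7 TPM (limma, adjusted p = 0.0391), while Slc16a3, another, had 3, 0 and 0 reads and lay below 1 TPM (limma, adjusted p = 0.0487).

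Among the pump subunits of this list, Atp1a4, the sperm form, had 0, 1 and 1 reads and lay below 1 TPM (limma, adjusted p = 0.0487). Fxyd1, a small regulator of the pump, had 268, 409 and 250 TPM, and the beta subunit gene Atp1b3 had 143, 236 and 315. Dlg1, the scaffold reported to hold Na-x at the membrane, had 91.1, 56.6 and 63.8 TPM, above 1 TPM (limma, adjusted p = 0.00395). Dlg1, Edn3, Ldha and Slc16a1 were singled out after their values were seen.

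**Figure D4:**
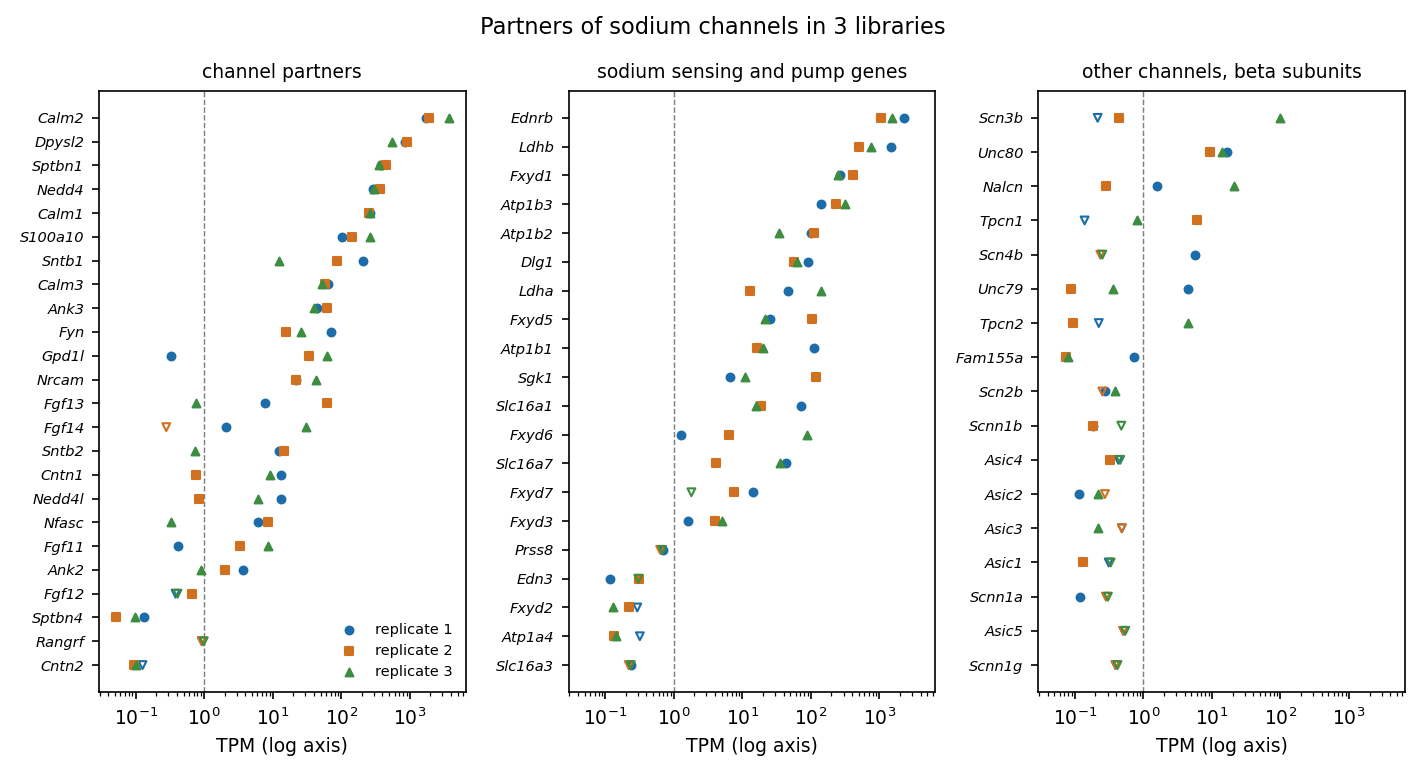
TPM on a log axis for the partner genes, the sodium sensing and pump genes, and the other sodium channels with the beta subunits, ordered by mean TPM, with 1 point per library and the dashed line at 1 TPM; hollow triangles are libraries with no read, at the level of 3 reads. The 4 highest partner genes lie between 290 and 3724 TPM in the 3 libraries, while Scn3b, Scn4b, Nalcn and Unc79 each lie above 1 TPM in 1 or 2 libraries.

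Of 14 other sodium channel genes, 12 had a read, 1 lay above 1 TPM and 5 below, and 6 passed neither way (limma). Their median was 0.26 in log2(TPM + 1), against 0.89 over all genes tested, of which 16.1% lay above and 13.5% below. Unc80, a large subunit of the sodium leak channel, was the 1 above, with 616, 341 and 483 reads and a mean of 13.3 ± 3.78 TPM (SD, n = 3; limma, adjusted p = 0.0122). Without replicate 3 that call was lost (limma, adjusted p = 0.0842). The pore of that channel, Nalcn, had 1.55, 0.288 and 21.1 TPM, high in replicate 3. Its partner Unc79 had 163, 3 and 12 reads, high in replicate 1, so the library with the highest level differed among these subunits. Tpcn1, an endosomal channel, had 0, 129 and 16 reads. The epithelial sodium channel genes Scnn1a and Scnn1b and the acid-sensing genes Asic1, Asic2 and Asic3 were those below, with at most 2 reads in a library, and Scnn1g and Asic5 had no read, where 3 reads in replicate 1 would be 0.393 and 0.509 TPM.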

How the data were processed

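RNA of sorted LepR+ cells was measured in 3 libraries of 1 group. The authors deposited log2 TPM for 52550 genes. The tools named, per the submitters' processing notes, are STAR and featureCounts, and the build is mm10 (GRCm38). Versions, strand setting and filters were not given in the sources used here. In the deposited log2 values it could be seen that 0.25 read had been added per gene. With GENCODE M21 exon lengths, or lengths solved from the values, whole reads (within 0.02 and 0.005 of a read) were recovered for 52514 genes. A library without a read is given by its reads.

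Means and SDs use TPM as deposited. Levels were tested against 1 TPM with limma 3.58.1 in R 4.3.3 (a two-sided test with 1.2 prior degrees of freedom and an adjusted p threshold of 0.05) over the 27395 genes with at least 1 read in at least 1 library, after a test on simulated data, in which most of the genes given a changed level were not called. A gene that passed neither way is therefore not shown to lie at 1 TPM. Nothing in the labels says the libraries came from separate animals, so p-values measure only the spread between these libraries. Coding sequences were aligned with MAFFT 7.526. Other work used Python 3.11.15. Alternatives were other pseudocounts, filters and levels, no mitochondrial genes, a mean-variance trend, and each replicate left out.

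The text names all members, all beta subunits, the 4 highest and up to 2 called-below genes of each other pathway list, up to 3 leading genes of each marker list, and the 4 genes nearest to Scn7a. Some genes of the lists and the sequences of the members are not reported here, and the counts and sums leave those genes out. Members and lists were chosen with earlier results of these data known.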

Additional observations from a re-analysis of the deposited data

How the results depend on the processing

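With all libraries limma called 4424 genes above and 3706 below 1 TPM, and 22 and 10 of the 58 tested genes of the 4 pathway lists. Leaving out each replicate in turn moved the genes above to between 0 and 2434 and those below to between 0 and 4889. It moved the list genes above to between 0 and 15 and those below to between 0 and 5. Each of these was 0 without replicate 1 and without replicate 2. The counts below were the least stable: for all genes and list genes they were 29850 and 16 with no filter, 15 and 0 with a mean of at least 0.5 TPM, 0 and 0 at a level of 0.5 TPM or without mitochondrially encoded genes, 10961 and 16 at a level of 2 TPM, and 9648 and 16 with a mean-variance trend. Part of this follows from the settings. With no filter, 52550 genes were tested, those with no read among them. A mean of at least 0.5 TPM took genes of low mean out before the test and left 22425. A level of 0.5 TPM leaves less room below it on the log2(TPM + 1) scale. The cause of the other shifts was not tested. The counts above kept within 1.5 times under these settings. Of 15 named list genes that were called, 9 kept their call without replicate 3, 9 at a level of 0.5 TPM and 9 without mitochondrially encoded genes. Without replicate 3 the calls of Ldhb, Unc80, Slc16a3, Atp1a4, Asic1 and Scnn1a were lost, as were those of Slc16a1 and Ldha.

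The mean log2(TPM + 1) of Scn7a was 10.8 and rose to 11.2 when TPM was rescaled without mitochondrially encoded genes, a shift that scaling gives to every gene left. Its share of the family was 98.0% in TPM and 96.5% in reads, which are not per length, and lay from 97.4% to 98.4% with 1 replicate left out. Genes that passed neither way changed side of 1 TPM, as log2 differences. With 1 replicate left out, Scn3b lay from -0.72 to 2.59, Scn4b from -0.97 to 0.38, Nalcn from -0.14 to 1.91, Tpcn1 from -0.57 to 0.83 and Unc79 from -0.72 to 0.45. Scn4b was 0.34 at a level of 0.5 TPM and 0.023 without mitochondrially encoded genes. Tpcn1 was -0.37 with a pseudocount of 0.1 and -0.36 at a level of 2 TPM. Unc79 was -0.14 and -0.58 with pseudocounts of 0.5 and 0.1, and -0.58 at a level of 2 TPM. No paired analysis was possible because there is 1 group.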
